A study of Mus musculus with 20 samples.

Results

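The 46 genes described here encode parts of the machinery that makes ribosomes in the nucleolus: subunits and initiation factors of RNA polymerase I, the proteins of the small nucleolar ribonucleoproteins (snoRNPs), abundant nucleolar proteins, and maturation factors of the small and the large ribosomal subunit. They were chosen by name, as a list of symbols matched to the table through their Ensembl identifiers, together with a level of at least 1 in 5 or more of the 20 libraries. All 46 listed genes were found and all 46 met that level, of 10890 gene entries that met it and 37748 entries in all. No measured difference between groups was part of the rule.

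RNA was sequenced from CFU-E, marrow progenitors committed to the red cell lineage, sorted alive by surface markers: high c-Kit and CD105 present, with the lineage markers, CD150, CD41, Sca-1 and CD16/32 absent. The 4 groups of 5 libraries were "Mx1-Cre PBS" and "Mx1-Cre PHZ", from Mx1-Cre mice, and "P95H PBS" and "P95H PHZ", from Mx1-Cre Srsf2P95H/+ mice, in which 1 copy of the gene of the splicing factor Srsf2 is mutated. PBS is the saline control, and PHZ is phenylhydrazine, a compound that destroys circulating red cells, injected under the skin in doses of 30 mg/kg, 1 on day 0 and another on day 1. Marrow was sorted on day 4. Every group carries Mx1-Cre, a recombinase under an interferon-responsive promoter that is active in blood-forming cells and in other tissues. How and when it was induced, and the ages of the mice, are not given in the sources used here. Every library is named for a different animal, so the spread between libraries of a group is a spread between mice.

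Ribosome production starts when RNA polymerase I, recruited with the help of Ubtf and the initiation factor Rrn3, transcribes one long precursor of the 18S, 5.8S and 28S ribosomal RNAs. Box C/D and box H/ACA snoRNPs then methylate and pseudouridylate the precursor, the small subunit processome folds and cuts its 5′ part, and separate sets of factors mature the large subunit before both subunits leave for the cytoplasm. Growing and dividing cells depend on this process, many of its genes are known targets of the transcription factor Myc, and erythroid progenitors, which divide fast and make large amounts of globin, are sensitive to its failure, as the inherited anaemias with ribosomal defects show. Ribosomal RNA itself was not analysed here, and the values below are messenger RNA levels of the factors.

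Promoter sequence was read for the genes on which the results turn, because Myc and its partner Max are known to bind the E-box CACGTG. RefSeq windows (GRCm38.p6, 250 bases before to 50 bases after the start site) were found for 42 of the 46 genes; Bop1, Fbl, Npm1 and Rrs1 were not matched. CACGTG, which reads the same on both strands, lay in a window of 10 of the 42 genes (23.8%). The share was 12.5% for the 8261 kept genes with a window and 8.09% for all 27025 genes with one. Of the 42 genes, 4 had several windows, and a match in any window of a gene was counted. The 10 genes were Imp4, Ltv1, Mybbp1a, Nop2, Pes1, Rrn3, Tsr1, Utp20, Utp4 and Wdr43. The 3 windows below belong to genes whose values are given in full further on, each written 5′ to 3′ on the strand of its gene, with each CACGTG in capitals.
Rrn3, chr16:13780449-13780748, plus strand: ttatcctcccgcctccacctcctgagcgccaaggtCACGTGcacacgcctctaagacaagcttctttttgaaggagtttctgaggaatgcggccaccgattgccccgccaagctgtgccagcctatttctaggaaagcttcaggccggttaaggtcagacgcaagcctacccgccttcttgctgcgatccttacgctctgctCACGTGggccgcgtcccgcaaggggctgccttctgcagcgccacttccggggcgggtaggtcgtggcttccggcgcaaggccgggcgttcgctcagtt
Ltv1, chr10:13193088-13193387, minus strand: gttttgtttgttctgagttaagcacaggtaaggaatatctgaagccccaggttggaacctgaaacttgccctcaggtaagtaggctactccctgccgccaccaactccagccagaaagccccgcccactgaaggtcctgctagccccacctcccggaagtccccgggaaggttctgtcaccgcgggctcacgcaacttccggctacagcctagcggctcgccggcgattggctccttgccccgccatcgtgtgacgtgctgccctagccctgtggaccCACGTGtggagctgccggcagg
Tsr1, chr11:74897830-74898129, plus strand: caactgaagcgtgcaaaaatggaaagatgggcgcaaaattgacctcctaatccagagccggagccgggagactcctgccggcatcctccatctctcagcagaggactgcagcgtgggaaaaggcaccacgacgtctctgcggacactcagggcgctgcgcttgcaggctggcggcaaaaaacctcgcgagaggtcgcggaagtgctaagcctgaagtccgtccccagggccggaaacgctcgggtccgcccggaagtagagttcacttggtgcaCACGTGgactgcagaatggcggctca
Rrn3 held 2 copies, whose first bases lay at positions -215 and -48 from the start site. In Ltv1 and Tsr1 the motif began at 29 and 25, after the start. Other motifs were searched on both strands and counted by gene in the same way. CCGGAAG, a core of ETS factor sites, was found for 40.5% of the 42 genes (23.3% of kept genes). ATGGCG, a core of YY1 sites, was found for 31.0% (19.7%), and TATAAA for 4.76% (7.77%). AGATAA, which Gata1 and its relatives are known to bind, was found for 0 of the 42 genes (7.63% of kept genes). Such matches describe the letters in these windows and are not binding sites.

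Values were taken as TPM-like, that is per transcript length and per library total, multiplied by 1 factor per library. They summed to between 924763 and 1085047 per library. The division by length was not tested, and comparisons of level between genes rest on it. All 12 CFU-E and erythroid markers passed the low-value limit, with Epor, the erythropoietin receptor, at 126 to 165 and Gata1 at 172 to 247. With PHZ, 2 of the 12 rose and 3 fell in Mx1-Cre, and 2 rose and 5 fell in P95H: the transferrin receptor Tfrc rose by 0.89 and 0.75, and Kit fell by 0.80 and 0.77 on the log2 scale. For these and the other marker counts with PHZ below, 17.0% of all genes were called higher and 14.9% lower in Mx1-Cre. In P95H the shares of all genes were 12.6% and 17.7%. Among 8 macrophage markers, C1qa, C1qb and C1qc were at most 0.154, Cd163 was at 0.545 to 0.939, Vcam1 reached 1.37 and Cd68, which alone passed, was at 1.07 to 2.10. Among 12 lymphoid markers, the T cell genes Cd3d and Cd3e were at most 0.251, while the B lineage genes Igll1, Vpreb1 and Cd79a reached 8.24, 5.15 and 4.93. Nkg7, another of the 12, reached 6.63, so the lymphoid signal was not of B lineage genes alone. Of 8 basophil and mast cell markers only Il4 passed (0 to 3.37), and it rose by 0.60 in Mx1-Cre and 1.06 in P95H. Granulocyte and monocyte markers were present in every library (18 of 20 passed, none of the 20 was at 0 in any library), and their mean log2 level was 3.70 ± 0.40 for Mx1-Cre with PBS, 2.82 ± 0.86 for Mx1-Cre with PHZ, 4.53 ± 0.81 for P95H with PBS and 2.86 ± 0.54 for P95H with PHZ (mean ± SD of 5 libraries, as for every ± below). These markers were lower with PHZ for 1 of 18 in Mx1-Cre and for 17 of 18 in P95H. The 3 lymphoid markers that passed were lower with PHZ for 1 of 3 in Mx1-Cre and 3 of 3 in P95H, and the 3 megakaryocyte markers for 3 of 3 and 2 of 3. The part of these shifts in the results below was tested for the granulocyte and monocyte markers alone. Replicate 5 of P95H PHZ stood apart as the lowest library of its group in most of the 46 genes, and results with and without it are given further on. In a bulk library, fewer cells of a type and less RNA per cell cannot be told apart.

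Under PBS in Mx1-Cre mice the 46 genes spanned about 2 orders of magnitude in level per length. Npm1, the nucleolar chaperone nucleophosmin, stood first at 3045 ± 182, and Ncl, nucleolin, second at 1524 ± 97.5. Ranks 3 to 7 were held by 5 of the 7 snoRNP core proteins: Nop56 at 516 ± 28.6, Nhp2 at 469 ± 41.4, Fbl at 468 ± 45.7, Nop10 at 443 ± 41.3 and Nop58 at 382 ± 13.5. The other two, Dkc1 at 220.3 ± 6.08 and Gar1 at 158 ± 18.4, ranked 14 and 17. Among these, Nhp2, Fbl and Nop10 lay within each other's SD and cannot be ordered. The lowest were Utp20 at 27.6 ± 2.09, Polr1e at 34.9 ± 3.37 and Rrp1b at 38.6 ± 3.42. Summed, the 46 genes held 1.14% ± 0.0767 of the library signal under PBS and 1.41% ± 0.0420 under PHZ in Mx1-Cre, and 1.19% ± 0.0524 and 1.40% ± 0.122 in P95H. In each genotype the PBS and PHZ groups overlapped little or not at all in this share: 1.04% to 1.24% against 1.35% to 1.45% in Mx1-Cre, and 1.12% to 1.23% against 1.22% to 1.56% in P95H.

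**Figure D1:**
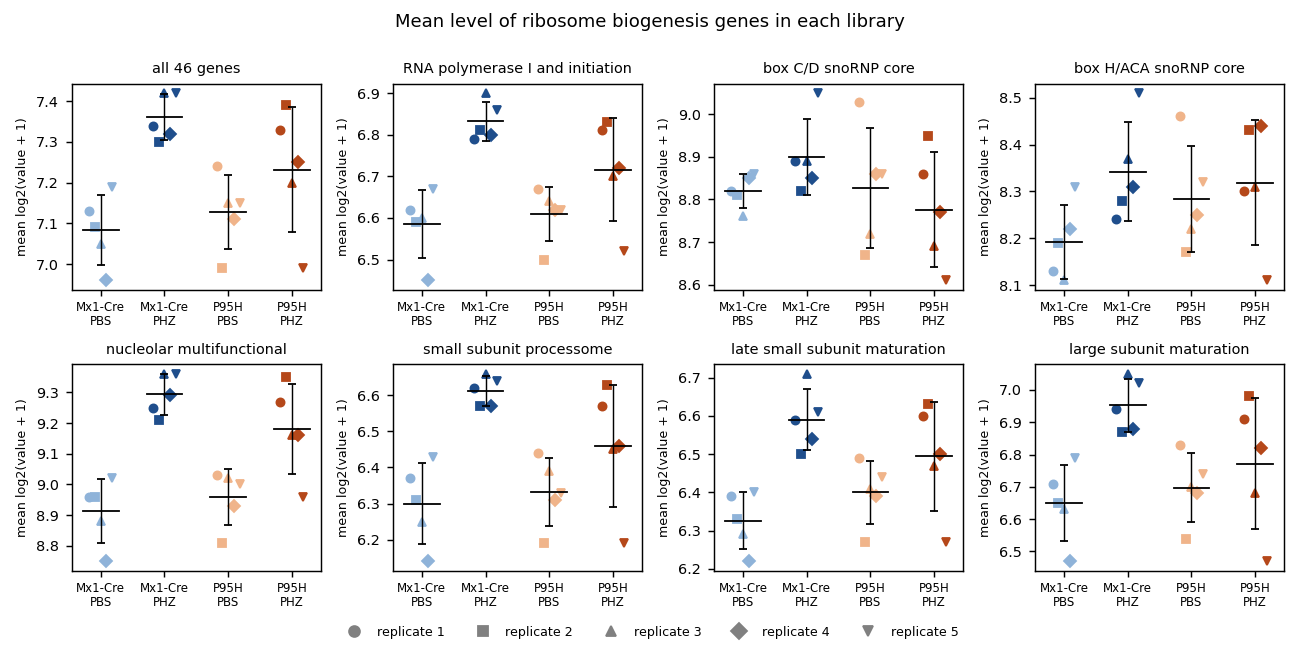
Mean log2(value + 1) over all 46 genes and over each of the 7 role groups (y axis), for the 4 groups of 5 libraries (x axis). Points are libraries with the marker shape giving the replicate number, horizontal lines are group means and error bars are 1 SD; over all 46 genes the 5 Mx1-Cre PHZ libraries (7.30 to 7.42) lie above the 5 Mx1-Cre PBS libraries (6.96 to 7.19), while P95H PHZ runs from 6.99 (replicate 5) to 7.39 and overlaps P95H PBS (6.99 to 7.24).

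Most of these genes had more messenger RNA in Mx1-Cre CFU-E after PHZ than after PBS. Of the 46, 32 rose and 0 fell (limma with Benjamini-Hochberg adjustment over all 10890 genes, threshold 0.05), while 17.0% of all genes were called higher and 14.9% lower. The changes were modest: the median log2 fold change was 0.28, against 0.00 over all genes, and the range was -0.05 to 0.60. For 26 of the 46, all 5 PHZ libraries lay above all 5 PBS libraries, as they did for 12.6% of all genes. In P95H CFU-E, 11 of the 46 rose and 0 fell, with a median of 0.09 (-0.02 over all genes), where 12.6% of all genes were called higher and 17.7% lower. Only 5 of the 46 had all PHZ libraries above all PBS libraries there, where 7.59% of all genes did. Every gene called in P95H was also called in Mx1-Cre: Polr1a, Rrn3, Ncl, Mybbp1a, Ddx21, Heatr1, Utp20, Imp4, Bms1, Ltv1 and Bop1. Whether the responses of the genotypes differ is a separate test, given further on. The shares of all genes called higher, 17.0% in Mx1-Cre and 12.6% in P95H, also apply to the counts by role below.

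**Figure D2:**
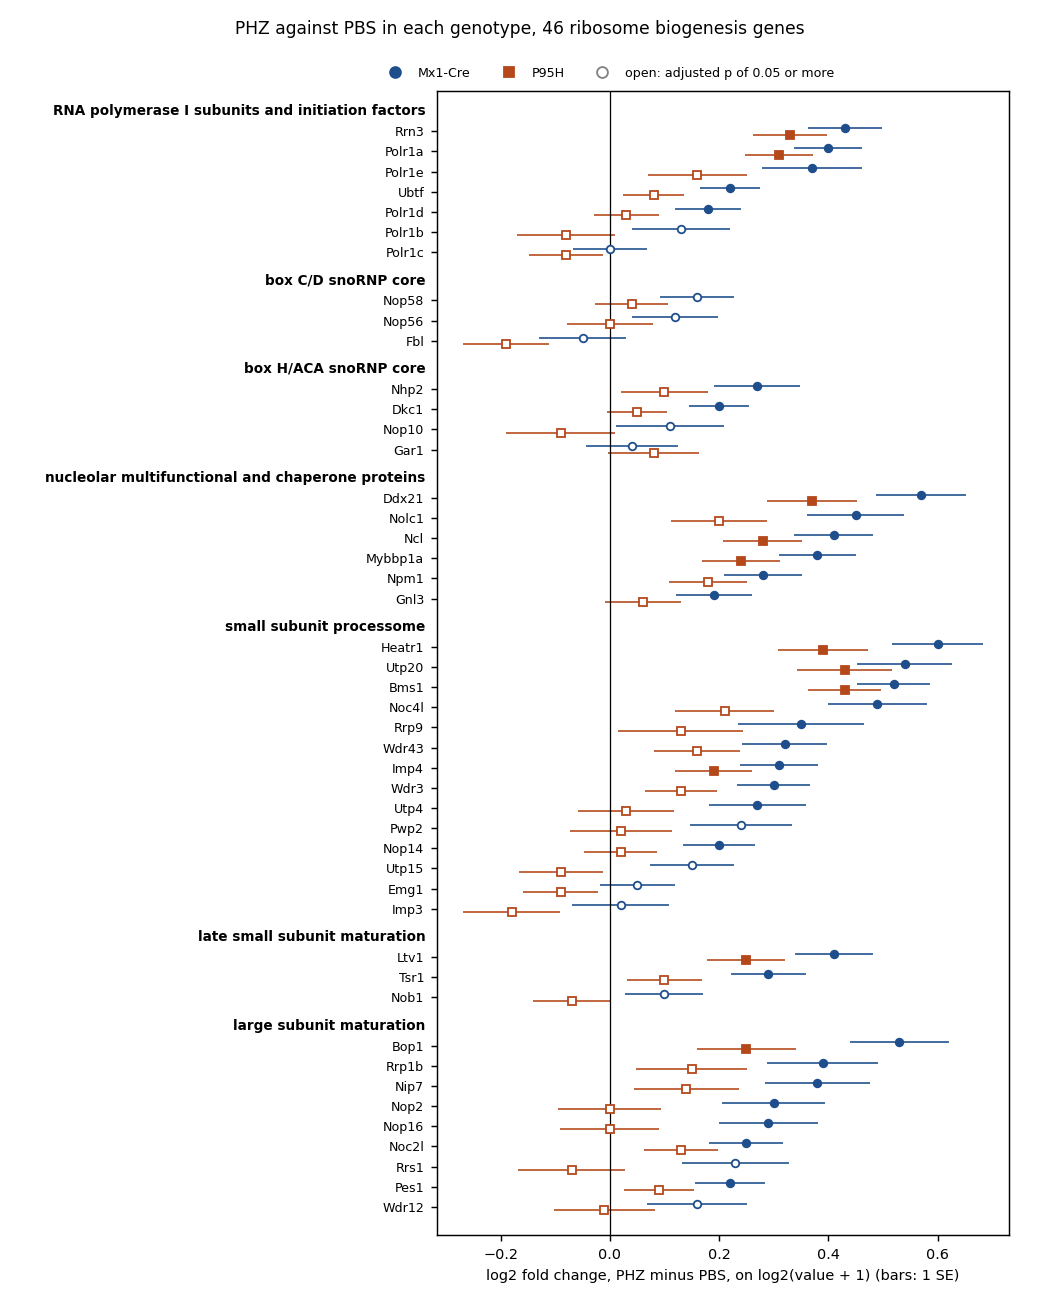
Log2 fold change of PHZ against PBS (x axis, difference on log2(value + 1)) for each of the 46 genes (y axis, grouped by role and ordered by the change in Mx1-Cre), with circles for Mx1-Cre, squares for P95H and bars of 1 SE; filled symbols have a limma adjusted p under 0.05. The 32 filled circles run from 0.18 (Polr1d) to 0.60 (Heatr1), and the 11 filled squares from 0.19 (Imp4) to 0.43 (Bms1 and Utp20).

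Within RNA polymerase I, the initiation factor and the largest subunit moved most. Rrn3, which couples the polymerase to the promoter-bound factors (Ensembl ENSMUSG00000022682, GRCm38 chr16:13780708-13814839, plus strand), had values of 62.3, 61.5, 62.1, 47.8 and 61.7 in Mx1-Cre PBS and 80.1, 80.0, 82.3, 80.2 and 75.3 in Mx1-Cre PHZ. In P95H they were 64.4, 58.9, 69.8, 60.1 and 63.1 under PBS and 84.0, 83.4, 82.7, 75.2 and 72.6 under PHZ. In both genotypes every PHZ library was above every PBS library, and replicate 4 of Mx1-Cre PBS stood apart as the lowest. The log2 fold change was 0.43 (SE 0.0675, adjusted p = 7.02e-05) in Mx1-Cre and 0.33 (SE 0.0675, adjusted p = 0.000944) in P95H. Polr1a, the catalytic subunit, rose as well, by 0.40 and 0.31, from 56.8 ± 3.54 to 75.4 ± 6.19 in Mx1-Cre and from 54.9 ± 2.39 to 68.4 ± 5.21 in P95H.

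Polr1e, a subunit of the initiation-competent polymerase (ENSMUSG00000028318, chr4:45018583-45036565, plus strand, overlapping Fbxo10 on the other strand), was called in Mx1-Cre and not in P95H. Its values went from 34.5, 34.1, 36.7, 30.1 and 39.3 to 41.5, 43.8, 48.9, 44.2 and 48.5 there, with no overlap, a log2 fold change of 0.37 (SE 0.0909, adjusted p = 0.00391). P95H values were 38.9, 32.6, 37.3, 36.1 and 37.3 under PBS and 43.3, 49.0, 41.0, 42.4 and 30.8 under PHZ, where replicate 5 lay below all PBS libraries and the fold change of 0.16 (SE 0.0909, adjusted p = 0.188) missed the threshold. Ubtf, the architectural factor of the rDNA promoter, rose by 0.22 in Mx1-Cre, and Polr1d, a subunit shared with RNA polymerase III, by 0.18. Neither was called in P95H (0.08 and 0.03). The second-largest subunit Polr1b (0.13 in Mx1-Cre, -0.08 in P95H) and Polr1c, also shared with RNA polymerase III (0.00 and -0.08), were called in neither genotype. In all, 5 of 7 genes of the group rose in Mx1-Cre and 2 of 7 in P95H.

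The snoRNP core proteins moved least. None of the 3 box C/D proteins was called in either genotype, with medians of 0.12 in Mx1-Cre and 0.00 in P95H. Fbl, fibrillarin, the methyltransferase (ENSMUSG00000046865, chr7:28169710-28179269, plus strand), had values of 441, 434, 429, 528 and 505 in Mx1-Cre PBS and 420.4, 417, 458, 431 and 527 in Mx1-Cre PHZ. In P95H it stood at 563, 437, 456, 526 and 524 under PBS and 468, 465, 414, 437 and 410.2 under PHZ. The groups overlapped in both genotypes, with estimates of -0.05 (SE 0.0792, adjusted p = 0.645) and -0.19 (SE 0.0792, adjusted p = 0.08). Nop58, a scaffold protein of the same particles (ENSMUSG00000026020, chr1:59684971-59719044, plus strand), read 376, 389, 366, 379.8 and 402 in Mx1-Cre PBS and 439.9, 397, 427, 415 and 459.7 in Mx1-Cre PHZ. Only replicate 2 of Mx1-Cre PHZ lay inside the PBS range, and the log2 difference was 0.16 (SE 0.0673, adjusted p = 0.0739). Under P95H the same gene read 444, 340.3, 384, 383 and 392 with PBS and 433, 437, 381, 403 and 346 with PHZ, a difference of 0.04 (SE 0.0673, adjusted p = 0.685). Those P95H groups overlapped. Nop56, the partner of Nop58, gave 0.12 and 0.00.

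Of the 4 box H/ACA proteins, Dkc1 and Nhp2 rose in Mx1-Cre and none was called in P95H. Nhp2 (ENSMUSG00000001056, chr11:51619735-51623714, plus strand, overlapping Rmnd5b on the other strand) had values of 485, 466, 442, 423 and 530.3 in Mx1-Cre PBS and 549, 522, 578, 537 and 635 in Mx1-Cre PHZ. Replicate 2 of the PHZ group lay just under the highest PBS library, and the log2 fold change was 0.27 (SE 0.0788, adjusted p = 0.0134). P95H gave 580.5, 456, 548, 524 and 529 under PBS and 578, 571, 599.6, 614 and 466 under PHZ, with overlapping groups and a difference of 0.10 (SE 0.0788, adjusted p = 0.367). Dkc1, dyskerin, the pseudouridine synthase, went from 220.3 ± 6.08 to 253 ± 15.6 in Mx1-Cre (0.20, SE 0.0550, adjusted p = 0.00962). Nop10 (ENSMUSG00000027133, chr2:112261926-112263269, plus strand), a small core protein, was at 410.5, 426, 415, 450.2 and 511 in Mx1-Cre PBS and 429, 454, 482, 474 and 556 in Mx1-Cre PHZ. These groups overlapped, and the difference of 0.11 (SE 0.0993, adjusted p = 0.418) missed the threshold. Its P95H values overlapped too, at 529.7, 441, 399, 432 and 483 under PBS and 362, 498, 414, 515 and 367 under PHZ, a difference of -0.09 (SE 0.0993, adjusted p = 0.513). Gar1 gave 0.04 and 0.08.

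All 6 nucleolar proteins of broad function rose in Mx1-Cre, with a median of 0.39, and 3 of them rose in P95H. Ddx21, an RNA helicase that acts in rRNA transcription and processing (ENSMUSG00000020075, chr10:62580251-62602281, minus strand), went from 272, 279.8, 253, 202 and 259.6 in Mx1-Cre PBS to 365, 351, 398, 382 and 375 in Mx1-Cre PHZ. In P95H the values were 263, 234, 288, 248 and 258 under PBS and 369, 373, 338, 308 and 289 under PHZ. Each PHZ library was above each PBS library in both genotypes, and the log2 fold changes were 0.57 (SE 0.0821, adjusted p = 2.64e-05) and 0.37 (SE 0.0821, adjusted p = 0.00158). Nolc1, a snoRNP chaperone also called Nopp140 (ENSMUSG00000015176, chr19:46075863-46085530, plus strand), had values of 241, 226, 219, 182 and 235 in Mx1-Cre PBS and 301, 278, 314, 296 and 309.8 in Mx1-Cre PHZ, without overlap. Its P95H values were 229.9, 195, 236, 211 and 223 under PBS and 285, 302, 246, 228 and 207 under PHZ, where replicates 4 and 5 stayed within the PBS range. It rose in Mx1-Cre by 0.45 (SE 0.0885, adjusted p = 0.000685) and was not called in P95H at 0.20 (SE 0.0885, adjusted p = 0.09). Ncl, which binds the rRNA precursor, rose in both genotypes (0.41 and 0.28), from 1524 ± 97.5 to 2031 ± 135 in Mx1-Cre. Mybbp1a, a nucleolar Myb-binding protein, did so too (0.38 and 0.24). Npm1 rose in Mx1-Cre from 3045 ± 182 to 3709 ± 268 (0.28), and gave 0.18 (SE 0.0710, adjusted p = 0.0627) in P95H. Gnl3, nucleostemin, was the weakest call of the group, at 0.19 (SE 0.0695, adjusted p = 0.042) in Mx1-Cre.

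**Figure D3:**
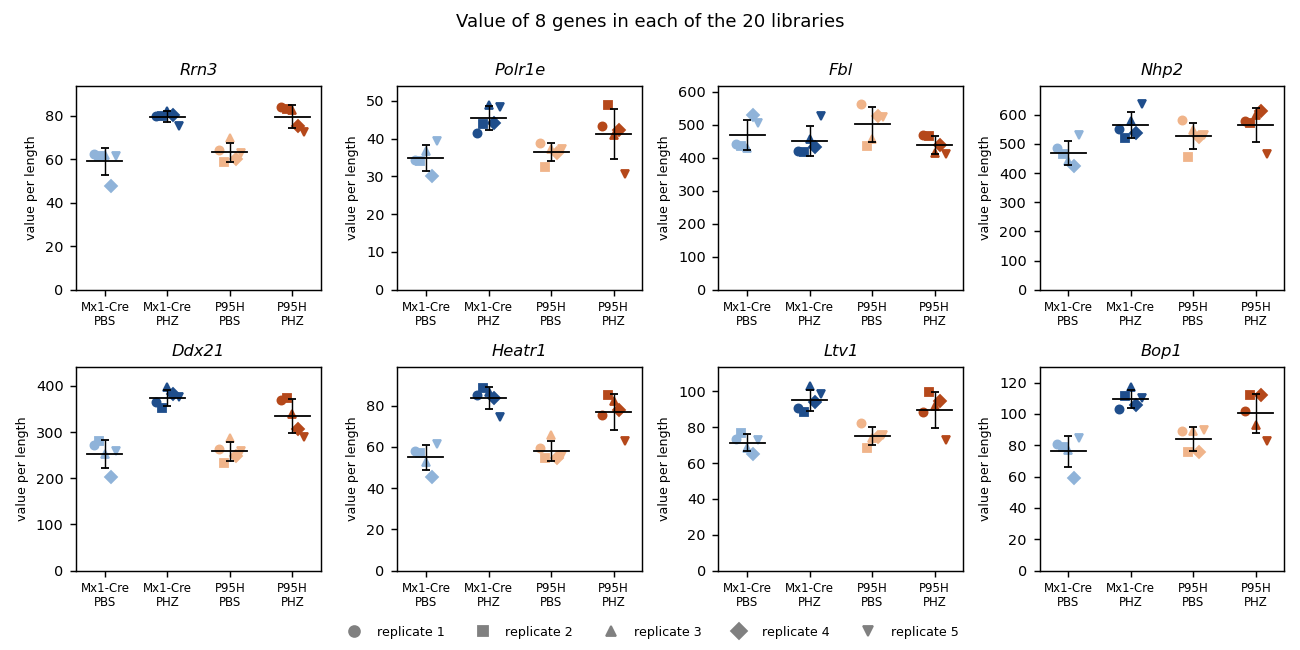
Values per length (y axis, from 0) of Rrn3, Polr1e, Fbl, Nhp2, Ddx21, Heatr1, Ltv1 and Bop1 in each of the 20 libraries (x axis, 4 groups), with marker shapes for replicate numbers, lines for group means and bars for 1 SD. Ddx21 and Rrn3 show PHZ libraries above PBS libraries in both genotypes, Fbl overlaps throughout, and replicate 5 of P95H PHZ is the lowest library of its group in each panel.

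In the small subunit processome 10 of 14 genes rose in Mx1-Cre (median 0.31) and 4 of 14 in P95H (median 0.13), a lower median than that of the nucleolar proteins in both, but the gene with the largest estimate was in this group in each genotype. Heatr1, the counterpart of yeast Utp10, which acts both in rRNA transcription and in 18S processing (ENSMUSG00000050244, chr13:12395027-12440289, plus strand, overlapping Lgals8 on the other strand), had values of 58.2, 57.2, 52.8, 45.4 and 61.2 in Mx1-Cre PBS and 85.0, 88.6, 86.8, 83.9 and 74.5 in Mx1-Cre PHZ. In P95H it was at 59.3, 54.8, 66.0, 54.4 and 55.8 under PBS and 75.5, 85.3, 82.3, 77.9 and 62.9 under PHZ, where only replicate 5 lay inside the PBS range. The log2 fold change of 0.60 (SE 0.0828, adjusted p = 1.54e-05) in Mx1-Cre was the largest of the 46 genes, and that in P95H was 0.39 (SE 0.0828, adjusted p = 0.00109). Bms1, a GTPase of the processome, had the smallest adjusted p in both genotypes: it went from 78.1 ± 6.21 to 112 ± 6.18 in Mx1-Cre (0.52, SE 0.0667, adjusted p = 6.32e-06) and from 75.8 ± 3.82 to 103 ± 9.84 in P95H (0.43, SE 0.0667, adjusted p = 4.96e-05). Utp20, a large scaffold protein, rose by 0.54 and 0.43, from 27.6 ± 2.09 to 40.6 ± 4.33 in Mx1-Cre.

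Noc4l, the mouse Noc4 (ENSMUSG00000033294, chr5:110648418-110653417, minus strand), had values of 128, 119, 121, 96.0 and 137 in Mx1-Cre PBS and 160.5, 169, 181, 159 and 174 in Mx1-Cre PHZ, without overlap. P95H values were 139.9, 114, 136, 137 and 121 under PBS and 173, 163, 142, 152 and 123 under PHZ, with replicate 5 again inside the PBS range. The fold change was 0.49 (SE 0.0900, adjusted p = 0.000312) in Mx1-Cre and 0.21 (SE 0.0900, adjusted p = 0.084) in P95H, the latter above the threshold. Imp4, a U3 snoRNP protein, rose in both genotypes (0.31 and 0.19). Rrp9, the U3-specific protein (0.35), and the WD-repeat proteins Wdr43 (0.32), Wdr3 (0.30) and Utp4 (0.27), with the U3-associated Nop14 (0.20), rose in Mx1-Cre and were not called in P95H. Not called in either genotype were Pwp2 (0.24 and 0.02), Utp15 (0.15 and -0.09), the methyltransferase Emg1 (0.05 and -0.09) and Imp3 (0.02 and -0.18).

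Of the 3 late factors of the small subunit, 2 rose in Mx1-Cre and 1 in P95H. Ltv1, an export and maturation factor of the pre-40S particle (ENSMUSG00000019814, chr10:13178140-13193168, minus strand), had values of 73.5, 77.0, 68.7, 64.9 and 73.0 in Mx1-Cre PBS and 90.6, 88.6, 103, 93.9 and 98.8 in Mx1-Cre PHZ. In P95H these were 82.4, 68.4, 73.8, 74.5 and 75.5 under PBS and 88.4, 99.4, 91.7, 94.9 and 73.0 under PHZ. All PHZ libraries but replicate 5 of P95H lay above the PBS libraries of their genotype, and the fold changes were 0.41 (SE 0.0714, adjusted p = 0.000212) and 0.25 (SE 0.0714, adjusted p = 0.0113). Tsr1, which keeps the pre-40S particle from premature initiation (ENSMUSG00000038335, chr11:74898071-74909342, plus strand, overlapping Srr on the other strand), stood at 80.0, 78.5, 79.7, 70.2 and 87.0 in Mx1-Cre PBS and 96.0, 97.8, 107, 94.0 and 90.5 in Mx1-Cre PHZ. With P95H it stood at 89.0, 81.0, 86.7, 83.0 and 85.7 under PBS and 102, 102, 85.5, 89.5 and 78.4 under PHZ, spread on both sides of the PBS values. It rose in Mx1-Cre by 0.29 (SE 0.0688, adjusted p = 0.00269), and the P95H difference was 0.10 (SE 0.0688, adjusted p = 0.305). Nob1, the endonuclease that makes the 3′ end of 18S rRNA, was called in neither (0.10 and -0.07).

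Among the 9 large subunit factors, 7 rose in Mx1-Cre, where 17.0% of all genes did. Only Bop1 rose in P95H, which is 11.1% of the group and below the 12.6% of all genes. Bop1, a member of the PeBoW complex with Pes1 and Wdr12 (ENSMUSG00000022557, chr15:76452989-76477277, minus strand, overlapping Mroh1 on the other strand), had values of 80.9, 79.1, 76.8, 58.9 and 84.4 in Mx1-Cre PBS and 103, 111, 117, 105 and 110.5 in Mx1-Cre PHZ. P95H values were 88.9, 75.8, 89.4, 75.8 and 89.9 under PBS and 102, 112, 93.2, 112 and 82.6 under PHZ. The Mx1-Cre groups did not overlap, at a fold change of 0.53 (SE 0.0911, adjusted p = 0.000175), whereas those of P95H did, at 0.25 (SE 0.0911, adjusted p = 0.042). That P95H call was lost in 11 of 32 alternative analyses, and the call of Imp4 in 20 of 32. Rrs1, which brings the 5S particle into the pre-60S subunit (ENSMUSG00000061024, chr1:9545408-9547455, plus strand), read 84.2, 80.1, 82.4, 74.6 and 92.4 in Mx1-Cre PBS and 102, 88.4, 103, 90.0 and 101 in Mx1-Cre PHZ. It read 97.9, 73.9, 86.0, 80.7 and 84.9 in P95H PBS and 97.5, 92.6, 69.8, 82.4 and 63.4 in P95H PHZ, where replicates 3 and 5 were below all PBS libraries. Neither difference was called (0.23 (SE 0.0977, adjusted p = 0.0792) and -0.07 (SE 0.0977, adjusted p = 0.607)). The other genes that rose in Mx1-Cre were Rrp1b (0.39), Nip7 (0.38), the rRNA methyltransferase Nop2 (0.30), Nop16 (0.29), Noc2l (0.25) and Pes1 (0.22). Wdr12 was not called (0.16).

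Ratios between members of one complex shifted by different amounts. In PeBoW, the log2 ratio of Bop1 to Wdr12 was -0.62 ± 0.14 in Mx1-Cre PBS and -0.24 ± 0.08 in Mx1-Cre PHZ, and -0.39 ± 0.16 and -0.13 ± 0.05 in P95H. The ratio of Pes1 to Wdr12 moved less in Mx1-Cre, from 0.36 ± 0.08 to 0.42 ± 0.03. In RNA polymerase I, the log2 ratio of Polr1a to Polr1c went from -1.22 ± 0.13 to -0.80 ± 0.20 in Mx1-Cre and from -1.31 ± 0.16 to -0.91 ± 0.13 in P95H. Polr1a to Polr1e was 0.70 ± 0.11 and 0.73 ± 0.17 in Mx1-Cre, and 0.59 ± 0.11 and 0.74 ± 0.14 in P95H. In box C/D particles, Fbl to Nop58 went from 0.29 ± 0.12 to 0.07 ± 0.09 in Mx1-Cre and from 0.36 ± 0.08 to 0.14 ± 0.06 in P95H. These ratios are descriptions of 22 pairs and were not tested.

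The genes that moved least were mostly those with short transcripts, a split looked at after the values were seen. By the longest principal transcript in GENCODE vM21, 8 of the 46 genes were under 1500 bases (Imp3, Emg1, Nhp2, Nop10, Polr1d, Fbl, Gar1 and Polr1c). Of these 2 rose in Mx1-Cre (median 0.05), compared with 14 of 18 genes of 1500 to under 3000 bases (median 0.26) and 16 of 20 of 3000 bases or more (median 0.38). Of all genes in these bins, 170 of 1692, 625 of 3524 (17.7%) and 1026 of 4814 (21.3%) were called higher. In P95H the counts were 0 of 8, 2 of 18 and 9 of 20, with medians of -0.09, 0.05 and 0.17, where 4.37%, 10.2% and 18.8% of all genes were called higher, so that the middle bin was near its background. All kept genes showed a smaller gradient of the same direction: medians of -0.06, 0.00 and 0.03 in Mx1-Cre and of -0.13, -0.03 and 0.03 in P95H. Over the 46 genes, Spearman's rho of length and change was 0.59 in Mx1-Cre and 0.55 in P95H, and over 10030 genes with a length it was 0.15 and 0.28. These are correlations across genes measured in the same libraries, so the points are not independent. For the interaction estimates rho was 0.01 over the 46 genes and 0.26 over the 10030 genes, whose medians in the 3 bins were -0.09, -0.05 and 0.00. Whether library preparation or RNA quality has a part in the gradient was not tested.

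**Figure D4:**
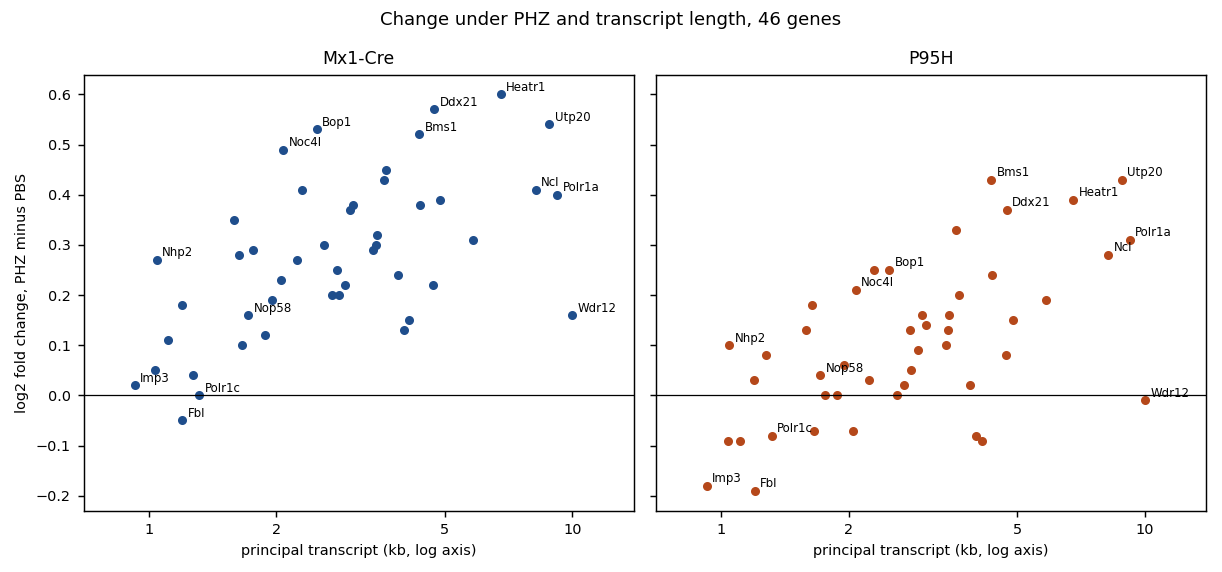
Length of the longest principal transcript (x axis, kilobases, log axis) and log2 fold change of PHZ against PBS (y axis) for the 46 genes, in Mx1-Cre (left) and P95H (right), 1 point per gene. Short genes such as Imp3 and Fbl lie near or below 0, and Heatr1, Utp20, Ddx21 and Bms1, all above 4 kb, are among the highest in both panels, while Wdr12, at 10 kb, is an exception.

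Returning to the promoters, all 10 genes with CACGTG in the window rose in Mx1-Cre (median 0.32, range 0.22 to 0.54), as did 20 of the 32 without it (median 0.23, range 0.00 to 0.60). In P95H 5 of the 10 and 5 of the 32 rose. Over all genes, 17.0% were called higher in Mx1-Cre and 12.6% in P95H. Shares for all kept genes with and without the motif were not computed, and the split was not tested. None of the 10 is under 1500 bases long. The motif was spread over the roles: Rrn3 in the polymerase group, Mybbp1a among nucleolar proteins, Imp4, Utp4, Utp20 and Wdr43 in the processome, Ltv1 and Tsr1 in late small subunit maturation, and Nop2 and Pes1 in the large subunit group.

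Between genotypes, no gene of the 46 was called under either treatment. Under PBS the estimates of P95H against Mx1-Cre ran from -0.10 (Nop56) to 0.17 (Nhp2), with a median of 0.05. Of the 46, 1 gene had an unadjusted p under 0.05, as did 1539 of all 10890 genes. The lowest limma adjusted p was 0.337. Over all genes 0.358% were called higher and 1.12% lower. Under PHZ, 43 of the 46 estimates were below 0, with a median of -0.13, where 67.6% of all genes were below 0 and the median of all genes was -0.05. There 14 of the 46 genes had an unadjusted p under 0.05, all lower in P95H, and 2341 of all 10890 genes had one in either direction. After adjustment 0 of the 46 passed, while 1.10% of all genes were called higher and 4.37% lower. The gene nearest the threshold was Polr1b, at -0.29 (SE 0.0895, adjusted p = 0.0602). Its values were 89.9, 78.3, 88.4, 78.7 and 84.9 in Mx1-Cre PHZ and 78.7, 80.7, 66.3, 66.7 and 53.6 in P95H PHZ, with 3 of the 5 P95H libraries below all Mx1-Cre libraries. Nop14 (-0.20, SE 0.0667, adjusted p = 0.0729), Utp15 (-0.23, SE 0.0767, adjusted p = 0.0814) and Nop56 (-0.23, SE 0.0786, adjusted p = 0.0879) came next.

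The size of the median under PHZ depended on scaling. It was -0.08 with TMM factors and -0.06 with quantile normalization or with each library rescaled to the same sum, where 39, 37 and 36 of the 46 estimates were below 0. Averaged over both treatments, the median was -0.03 and turned to 0.00 or 0.01 under these scalings, so no direction is given for it. There too 0 of 46 passed, with a lowest adjusted p of 0.0580 for Nop56, where 2.66% of all genes were called higher and 7.88% lower.

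**Figure D5:**
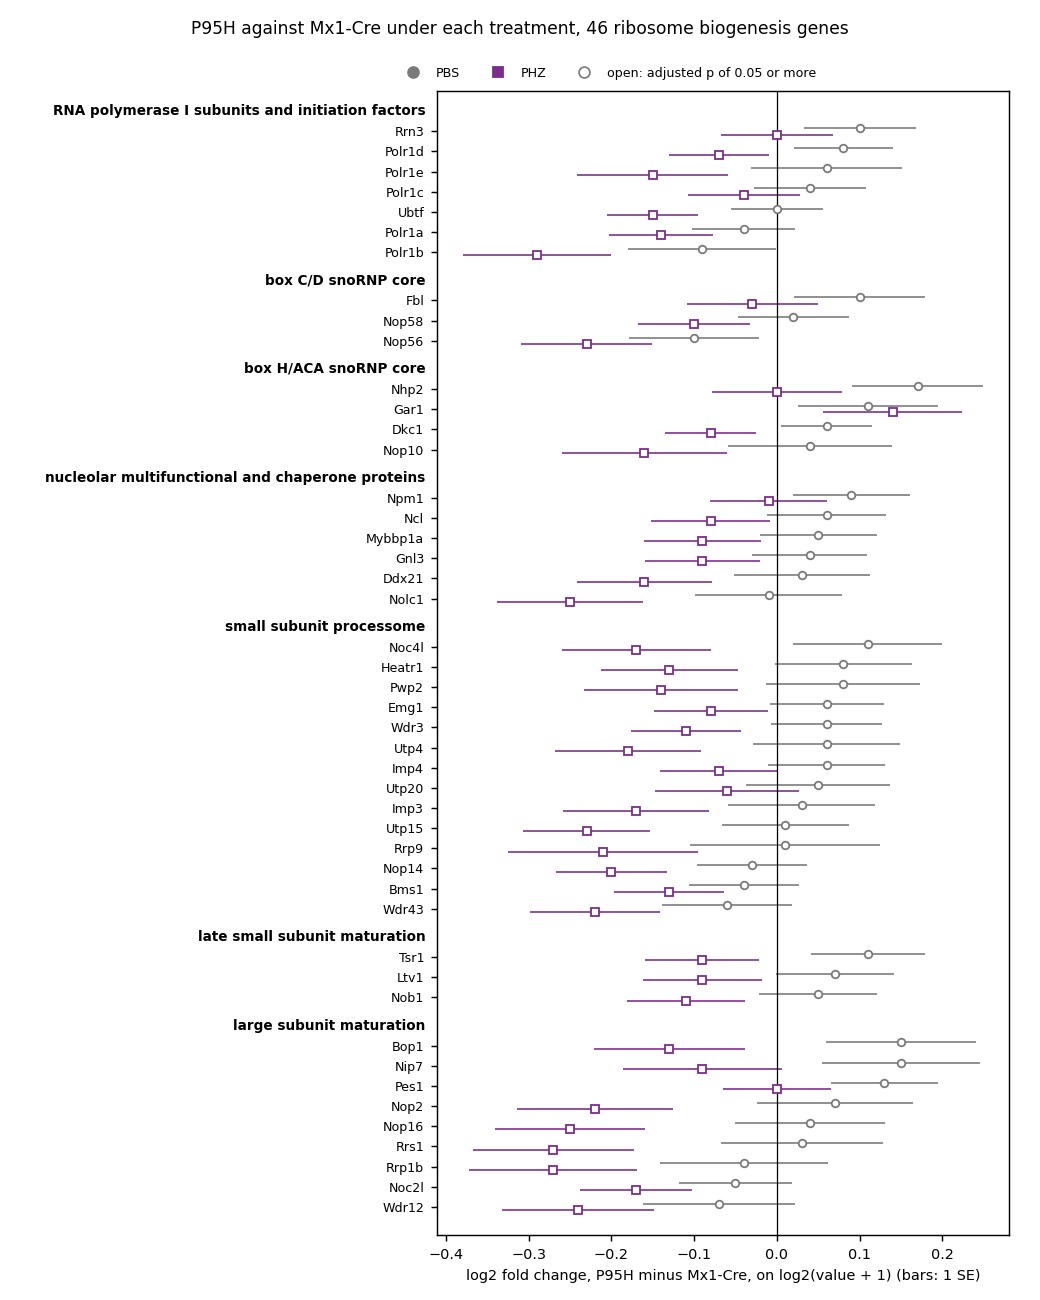
Log2 fold change of P95H against Mx1-Cre (x axis, difference on log2(value + 1)) for the 46 genes (y axis, by role), with circles for PBS, squares for PHZ and bars of 1 SE. All symbols are open because no gene had a limma adjusted p under 0.05; the PBS estimates lie on both sides of 0 (36 above, 10 below), and 43 of the 46 PHZ estimates lie below 0.

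The test of whether PHZ acted differently in the genotypes (the interaction, the PHZ effect in P95H minus that in Mx1-Cre) called 0 of the 46 genes and 0 of all 10890, and 6 of the 46 and 577 of all genes had an unadjusted p under 0.05. The lowest adjusted p among the 46 was 0.798. Still, 45 of the 46 estimates were negative, with a median of -0.16 and a range of -0.30 to 0.04, where 57.7% of all genes were negative and their median was -0.03. The largest were Rrs1 at -0.30 (SE 0.138), Nop16 at -0.29 (SE 0.128), Nop2 at -0.29 (SE 0.133), Bop1 at -0.28 (SE 0.129), Noc4l at -0.28 (SE 0.127) and Nolc1 at -0.25 (SE 0.125). Gar1 alone was above 0, at 0.04 (SE 0.119). The PHZ effect is therefore not shown to differ between genotypes for any of these genes, and estimates of genes measured in the same libraries are not independent. In simulated data for the interaction, log2 changes of 0.25 were recovered for 9.0% of genes and changes of 0.5 for 70.1%.

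One library stood apart. Replicate 5 of P95H PHZ was the lowest of its group in 43 of the 46 genes, where 25.7% of all genes had their lowest value in it. The mean log2 level of the 46 genes was 6.99 in this library and 7.33, 7.39, 7.20 and 7.25 in replicates 1, 2, 3 and 4. Without it, 21 of the 46 genes rose with PHZ in P95H (median 0.14), the median difference between genotypes under PHZ was -0.06, and the interaction median was -0.11. Its granulocyte and monocyte marker mean, 3.52, was the highest of its group (2.18 to 3.09 in the others), and its erythroid marker mean of 8.39 was also the highest (8.02 to 8.35). With the granulocyte and monocyte mean as a covariate, 2 of the 46 genes, Ncl and Bms1, rose in P95H and 28 in Mx1-Cre, where 4.31% and 12.2% of all genes were called higher. The members' median changes were then 0.08 and 0.28, close to 0.09 and 0.28 without the covariate. Without the 2 P95H PBS libraries highest in granulocyte markers, an alternative chosen after seeing the data, 8 and 31 of the 46 rose, with medians of 0.10 and 0.28. Other groups had such libraries too. Replicate 4 of Mx1-Cre PBS was lowest in 32 of the 46 genes (31.2% of all genes) and replicate 2 of P95H PBS in 34 (23.2% of all genes). Without replicate 4 of Mx1-Cre PBS, 26 of the 46 rose in Mx1-Cre (median 0.24). Without replicate 2 of P95H PBS, 9 rose in P95H (median 0.06), and the interaction median was -0.21.

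The wider pathway was read from lists of genes other than the 46. For all list counts from here on, 17.0% of all genes were called higher and 14.9% lower with PHZ in Mx1-Cre. In P95H these shares were 12.6% and 17.7%. Of 50 other small subunit factors that passed the low-value limit, 32 rose and 0 fell with PHZ in Mx1-Cre (median 0.20), and 13 rose and 1 fell in P95H (median 0.08). Pno1, a late 40S factor, went from 123 ± 15.8 to 177 ± 11.8 in Mx1-Cre (log2 fold change 0.53, adjusted p = 0.000194) and rose in P95H (0.38). Nol10, a nucleolar processome protein, rose by 0.50 and 0.43. Of 57 genes listed as other large subunit factors, 31 rose and 1 fell in Mx1-Cre (median 0.19) and 5 rose and 3 fell in P95H (median 0.07). Those 5 are 8.77% of the list, below the share of all genes. Naf1, on this list although it assembles H/ACA particles, rose from 25.8 ± 2.57 to 36.4 ± 1.89 in Mx1-Cre (0.49) and by 0.32 in P95H. Mdn1, the giant ATPase of pre-60S maturation, rose by 0.51 in Mx1-Cre with overlapping groups (adjusted p = 0.0477) and was not called in P95H (0.40).

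Of 18 remaining subunits and factors of RNA polymerase I, 1 rose and 0 fell in Mx1-Cre, with a median of 0.04. That gene was Polr2h, a subunit common to the nuclear polymerases, at 0.31 (adjusted p = 0.0113). In P95H 0 rose and 2 fell, Znrd1 (-0.26) and Taf1c (-0.28), both chosen here after their values were seen. In the exosome, which trims rRNA precursors, 5 of 13 rose and 0 fell in Mx1-Cre (median 0.12), and 2 rose and 2 fell in P95H (median 0.03). Its nuclease Dis3 rose from 60.4 ± 5.45 to 80.8 ± 2.20 in Mx1-Cre (0.42) and by 0.32 in P95H, and Exosc1 rose by 0.32 in Mx1-Cre. RNA polymerase III, which makes 5S rRNA and transfer RNA, was mixed, with 7 of 21 higher and 4 lower in Mx1-Cre and 5 higher and 3 lower in P95H. Its largest subunit Polr3a rose (0.48 and 0.40), while Polr3gl, the alternative form of subunit Polr3g, fell by 0.55 and 0.44 on the log2 scale.

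Myc itself was not called in either genotype. Its value was 199 ± 16.7 under PBS and 170.0 ± 37.9 under PHZ in Mx1-Cre, and 168 ± 16.4 and 153 ± 27.0 in P95H, with estimates of -0.25 and -0.15 that missed the threshold (adjusted p = 0.141 and 0.414). Of 10 genes of the Myc network, 1 rose and 1 fell in Mx1-Cre, and 0 rose and 2 fell in P95H. Mxd4, which competes with Myc for Max, fell in both genotypes, by 1.39 and 1.36 on the log2 scale, from 13.0 ± 4.68 to 4.19 ± 0.824 in Mx1-Cre and from 12.3 ± 1.66 to 4.34 ± 1.76 in P95H, with no overlap. Mlx rose by 0.18 in Mx1-Cre (adjusted p = 0.0423), and Max fell by 0.29 on the log2 scale in P95H, a gene named after its value was seen.

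The cytosolic ribosomal protein messenger RNAs went the other way. Of 81, 45 fell and 6 rose in Mx1-Cre (median -0.22), and 67 fell and 1 rose in P95H (median -0.34). They held 19.8% ± 1.00 of the library signal in Mx1-Cre PBS and 17.5% ± 0.901 in Mx1-Cre PHZ, and 20.3% ± 1.01 and 17.2% ± 0.392 in P95H. Of all genes with transcripts under 1500 bases, 19.1% were called lower in Mx1-Cre and 31.4% in P95H. Whether transcript length has a part in the fall of the 81 genes was not tested. Rpl17 fell from 2523 ± 300 to 1904 ± 199 in Mx1-Cre (-0.40), and by 0.53 on the log2 scale in P95H. Rps13 was among the exceptions, at 0.40 in Mx1-Cre (adjusted p = 0.0248, overlapping groups). Many ribosomal protein genes have near-identical processed pseudogenes among which reads can be split, so single values in this family are uncertain. Among the 46 genes only pseudogenes named with the gene's own symbol were searched for. Splitting of reads there was not otherwise tested. Values were taken as shares of a library total times 1 factor per library, so the fall of so large a class and the rise of others need not be independent. How far they are linked was not tested.

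Differences between genotypes were called for a few genes of the wider pathway, all named here after their values were seen. Over all genes, 476 were called lower in P95H under PHZ. That count was 187 with TMM factors, 163 with quantile normalization and 123 with each library rescaled to the same sum. Calls of the single genes below under those scalings are not given here. Under PHZ, Twistnb, Polr2f and Taf1c of the RNA polymerase I list were lower in P95H, at -0.22, -0.39 and -0.26. Lower too, of the large subunit list, were Sbds (-0.41, limma adjusted p = 0.00157), its partner Efl1 (-0.22), Ruvbl1 (-0.32), Gnl3l (-0.19), Pelp1 (-0.23) and Naf1 (-0.24). That is 6 of 57, beside 4.37% of all genes. Sbds, the gene of a marrow failure syndrome with a ribosome joining defect, had a mean of 86.2 ± 6.44 in Mx1-Cre PHZ and 64.8 ± 5.82 in P95H PHZ, without overlap. Of the small subunit list, Rrp7a, Tsr3 and Tcof1 were lower (-0.22, -0.30 and -0.20) and Riok3 higher (0.18). The exosome nuclease Dis3 was lower under PBS (-0.25) and under PHZ (-0.35). Gnl3l was also lower under PBS (-0.26, adjusted p = 0.0092), without overlap, and these were the 2 calls under PBS in the lists of the wider pathway.

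Alternative scalings, filters and left-out libraries did not bring a single one of the 46 genes below 0 with PHZ in Mx1-Cre past the threshold. The Mx1-Cre count of 32 stayed between 25 and 36, and the call of Gnl3 was the least stable, kept in 17 of 32 alternatives. The P95H count of 11 ranged from 2 to 26, and 26 was reached when each library was rescaled to the same sum, where 24.4% of all genes were called higher.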

How the data were processed

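RNA-seq libraries of sorted CFU-E (20, 5 per group) were analysed from 1 table of normalized values. The deposited signal was taken as normalized to transcript length and library total and then multiplied by 1 factor per library (0.940 to 1.10). The factor was read from the deposited values, and the division by length was not tested. What set the factors is not stated in the labels. Bowtie, RSEM 1.2.4, TopHat and TopHat2 2.0.8b, with mouse builds mm10 and GRCm38 and human builds hg19 and GRCh37, are named without roles in the submitters' processing notes. The deposited table holds no counts, so the depth of single values is unknown.

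Entries with a value of at least 1 in 5 or more libraries were kept (10890 of 37748). Values were tested as log2(value + 1) with limma 3.58.1 (trend and robust, R 4.3.3), 1 mean per group over all 20 libraries, and Benjamini-Hochberg adjustment over all kept genes at 0.05; folds are on that scale, which understates changes of low genes. The test was tested on simulated data. Genes given in full were, in each role, the largest PHZ effect in Mx1-Cre and the largest interaction. Members and lists were chosen with earlier results of these data known. Gene positions are from GENCODE vM21 (GRCm38). Whether counting used strand is not given, and 14 members overlap a kept gene on the other strand. Alternatives covered scaling, pseudocount, filter, fit, covariate, replicate block and left-out libraries.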

Additional observations from a re-analysis of the deposited data

Results flagged for a closer look

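Rrn3 in replicate 4 of Mx1-Cre PBS, at 47.8, lay far below the other 4 libraries of its group (61.5 to 62.3), with a gap of 0.948 of the group's range against a critical value of 0.71. It was the 1 such library in 60 group tests, and chance flags about 1 in 20 groups.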

How the results depend on the processing

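The count of members higher with PHZ in Mx1-Cre (32) ranged from 28 to 36 over the other scalings, pseudocounts, filters, fits and the covariate. In P95H (11) it was 26 with values rescaled to the same sum and 2 with the granulocyte and monocyte covariate, and 9 to 15 under the other settings of that kind. Leaving out 1 library gave 25 (without replicate 3 of Mx1-Cre PHZ) to 35 in Mx1-Cre, and 9 (without replicate 2 of P95H PBS) to 21 (without replicate 5 of P95H PHZ) in P95H, where at most 1 member was called lower. Between genotypes under PHZ, 0 to 6 members were called lower: 6 without replicate 2 of P95H PHZ (Nolc1, Polr1b, Nop56, Wdr43, Utp15 and Rrp1b), 5 without replicate 1 of P95H PHZ (Ubtf, Polr1b, Nop14, Utp15 and Rrs1) and 1 without replicate 4 of Mx1-Cre PBS (Polr1b). Averaged over treatments the range was 0 to 4, with 4 without replicate 2 of P95H PHZ. The interaction called 0 members in every setting run, with medians of -0.21 to -0.11 when 1 library was left out, -0.13 with TMM, -0.09 with quantile normalization, -0.10 with rescaling to the same sum, and -0.17 to -0.16 otherwise. With the replicate number as a block the PHZ counts were 31 and 9, and 0 members were called elsewhere; the numbers do not pair the mice (same-number correlations -0.306 to 0.441, median 0.0282, and 4 of 20 libraries correlated best with their own number). Without the 2 P95H PBS libraries highest in granulocyte markers, an alternative chosen after seeing the data, the counts were 31 and 8. Over all genes, rescaling to the same sum moved the higher and lower calls of PHZ in Mx1-Cre from 1856 and 1618 to 2225 and 1216, in P95H from 1371 and 1923 to 2656 and 1089, of genotype under PHZ from 120 and 476 to 139 and 123 (154 and 187 with TMM), and of genotype averaged from 290 and 858 to 353 and 396 (408 and 427 with TMM). The factors of the deposited values ran from 1.0065 to 1.0793 in Mx1-Cre PBS and from 0.9641 to 1.0431 in Mx1-Cre PHZ. They ran from 0.9837 to 1.0956 in P95H PBS and from 0.9401 to 0.9835 in P95H PHZ. Divided by their factor, the libraries summed to between 979638 and 992743, so rescaling to the same sum took out nearly all of the factor. The cause of the unlike factors was not tested.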
